A study of Drosophila melanogaster with 7 samples.

Results

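Cytosolic ribosomal proteins are the protein part of the machine that translates messenger RNA, and their genes were followed here in the larval nervous system of Drosophila melanogaster after knockdown of Iswi, the ATPase of the ISWI nucleosome remodelling complexes. The ISWI RNAi group consisted of 4 libraries with the genotype elav-GAL4>UAS-ISWI RNAi, in which the neuronal driver elav-GAL4 expresses a hairpin against Iswi. The Control group consisted of 3 libraries with the genotype elav-GAL4; +, which carry the driver without the hairpin. All larvae were in the mid-third instar, 4 days after egg lay at 25 °C, and each library pooled 40 brains with their ventral nerve cords, so a change in neurons is averaged with the RNA of all other cells in the tissue. The larvae's sex is not stated in the sources used here, each group is 1 genotype, and the header of the deposited comparison names its control attp2.

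Members were genes whose symbol starts with RpL or RpS followed by a letter or a number. The reference annotation holds 92 such genes, 54 of the large and 38 of the small subunit. The authors' deposited table holds 16 of the 92, among 2366 genes in all, and it lists genes with a p under 0.1. For 15 of the 16 the symbol stands in the authors' deposited table, and RpS12 was recognised by its gene identifier because its row carries no symbol. The remaining 76 genes are not among the rows and are not analysed here, so nothing below describes all ribosomal protein genes. Only 1 fold change per gene was used, without values per library, and the authors' p is the sole measure of how libraries varied.

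The large subunit forms peptide bonds and the small subunit decodes the messenger. Each ribosome carries a single copy of most of its proteins, and dividing and growing cells transcribe their genes at high levels. Losing 1 copy of many of these genes gives the Minute phenotype of flies, a dominant delay of development with short, thin bristles. Several members have a second copy in the fly genome, and some of these second copies are used mainly in the germline, RpS19b among them.

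Of the 92 ribosomal protein genes, RpS19b rose and RpS2 fell at an adjusted p under 0.05 in the authors' deposited table. These 2 calls are 2.17% of the genes, against a background of 4.65% of the 10775 genes tested in that table. Higher calls made up 2.06% and lower calls 2.59% of all tests in the authors' deposited table, and listed genes with a positive or a negative fold change 10.2% and 11.2%. Listing at p under 0.1 took in 17.4% of the ribosomal protein genes and 21.5% of all tested genes of the authors' deposited table. The shares of ribosomal protein genes are over annotated genes and the backgrounds over tested ones, and how many of the 92 were tested is not known. Outside the groups of paralogues, 13 of 65 genes (20%) had a row in the authors' deposited table. Iswi itself fell to 24.6% of the Control level in the authors' deposited table (log2 fold change -2.03, adjusted p = 5.1e-230).

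**Figure D1:**
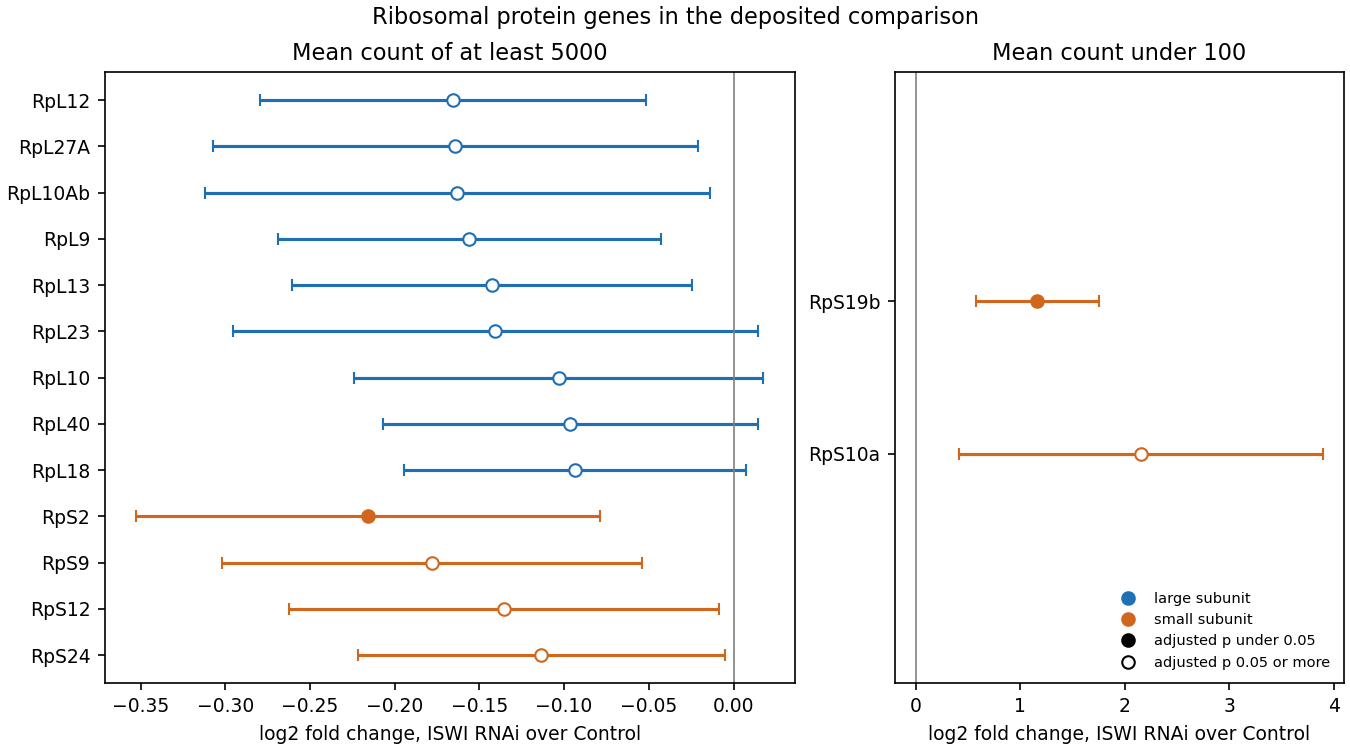
Log2 fold change (ISWI RNAi over Control, x axis) of 15 of the 16 listed ribosomal protein genes, with the 95% interval implied by the authors' p; filled points have an adjusted p under 0.05. The 13 abundant genes drawn (left) lie between -0.22 and -0.09, while RpS19b and RpS10a (right, on a wider axis) lie at 1.16 and 2.16.

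The listed genes fell into 2 kinds by level. Mean counts in the authors' deposited table put 14 genes apart, which had values between 16870 and 37530, and every one of these had a negative log2 fold change. RpS19b and RpS10a had mean counts of 62.3 and 6.0 in the authors' deposited table, and positive log2 fold changes. Per kilobase of gene model, the abundant genes ranged from 14618 (RpL12) to 42369 (RpL23) in mean count, against 93.6 for RpS19b and 9.93 for RpS10a, from the authors' deposited table. The median abundant gene therefore had a level per kilobase 312 times that of RpS19b.

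Among the small subunit proteins, RpS2 sits near the entry of the mRNA channel. RpS2 (FBgn0004867, chromosome 2L, 9896265 to 9897552, build BDGP6) had implied mean normalised counts of 34948 in ISWI RNAi and 40585 in Control, worked out from the mean count and fold of the authors' deposited table. On the log2 scale RpS2 fell by 0.22, to 86.1% of Control, by the authors' deposited table (standard error from the p 0.07, 95% interval -0.35 to -0.08, adjusted p = 0.0445 from the authors' DESeq2 comparison). The adjusted p lies just under the threshold. RpS2 overlaps no other annotated gene and hosts no snoRNA.

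RpS9, its neighbour at the mRNA entry site, had a log2 fold change of -0.18 in the authors' deposited table (chromosome 3L, 9509793 to 9511531, adjusted p = 0.0847). The antisense gene asRNA:CR45874 lies wholly within RpS9 on the other strand, over 873 bases. That antisense gene had a mean count of 22.2 and a log2 fold change of 0.85 in the authors' deposited table (95% interval 0.10 to 1.60, adjusted p = 0.245). The sources used here do not say whether counting used strand, so reads of this pair may not be separable. The mean count of RpS9 was 24969 in the authors' deposited table, far above that of its antisense partner.

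RpS12, a small subunit protein that flies need for the elimination of Minute cells by their neighbours, had a log2 fold change of -0.14 in the authors' deposited table (FBgn0286213, chromosome 3L, 13023352 to 13024762, 95% interval -0.26 to -0.01). Its unadjusted p of 0.0361 did not survive adjustment over all genes in the authors' deposited table (adjusted p = 0.288). By the authors' deposited table, RpS24 had a log2 fold change of -0.11 (adjusted p = 0.305). The interval of RpS24 ended just below 0, at -0.01, in the authors' deposited table.

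None of the 9 listed large subunit genes passed the adjusted threshold of the authors' DESeq2 comparison in the authors' deposited table. RpL12, at the base of the stalk that recruits translation factors, came nearest, with implied counts of 16033 in ISWI RNAi and 17985 in Control from the authors' deposited table. The log2 fold change of RpL12 was -0.17 in the authors' deposited table (chromosome 2R, 24060378 to 24061860, 95% interval -0.28 to -0.05, adjusted p = 0.0768). The 3′ end of RpL12 overlaps that of RpL39 by 8 bases on the other strand, and RpL39 is not among the rows.

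RpL10Ab forms the mobile stalk beside the exit site for tRNA and had a log2 fold change of -0.16 in the authors' deposited table (adjusted p = 0.274). RpL27A and RpL9 also stood at -0.16 (adjusted p = 0.233 and 0.107), by the authors' deposited table. RpL13 followed at -0.14 in the authors' deposited table (adjusted p = 0.191). With RpL12, these make 5 large subunit genes with an unadjusted p under 0.05.

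RpL23 lies on the face that meets the small subunit, where eIF6 binds, and had a log2 fold change of -0.14 in the authors' deposited table (adjusted p = 0.412). RpL10 and RpL40 join the large subunit late in its assembly, RpL40 after release from a ubiquitin fusion, and stood at -0.10 each in the authors' deposited table (adjusted p = 0.453 and 0.438). RpL18 had the smallest change of the abundant genes, -0.09, in the authors' deposited table (adjusted p = 0.399). The 95% intervals of RpL23, RpL10, RpL40 and RpL18 include 0.

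Values of the abundant genes lay close together. Their 95% intervals, 14 in number, all contain the range from -0.19 to -0.08 on the log2 scale, so the order of the genes cannot be read from the authors' deposited table. Their summed implied counts were 332529 in ISWI RNAi and 367154 in Control, or 90.6% of Control, from the authors' deposited table. Listing by p selects genes away from 0, so this sum describes the listed genes only. At their implied standard errors of 0.05 to 0.08, a gene needs a decrease of 5.7% to 8.62% to be listed in the authors' deposited table.

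Of large and small subunit genes, 9 of 54 (16.7%) and 7 of 38 (18.4%) had a row in the authors' deposited table. Among abundant genes the medians of log2 fold change were -0.14 for 9 large and -0.14 for 5 small subunit genes of the authors' deposited table. Both calls and both positive fold changes belonged to the small subunit in the authors' deposited table. No difference between the subunits was tested.

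**Figure D2:**
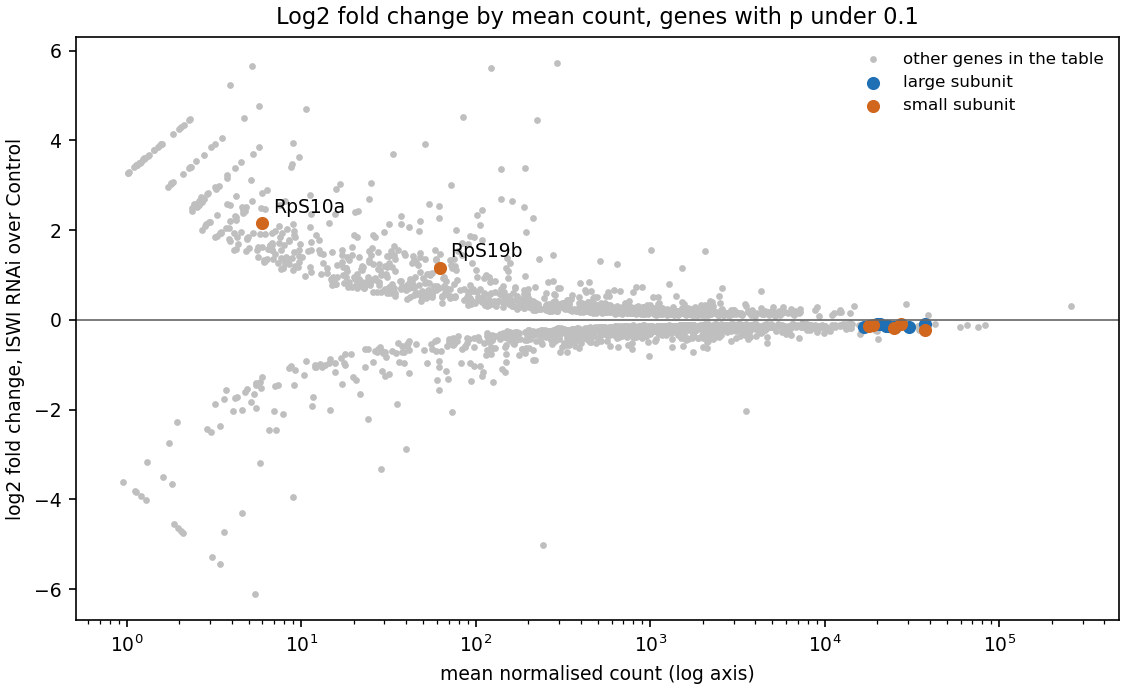
Log2 fold change (ISWI RNAi over Control, y axis) against mean normalised count (log axis) for all genes with a row in the authors' deposited table, with large and small subunit genes coloured. The gap around 0 is where genes with p of 0.1 or more would lie; 14 ribosomal protein genes sit at the abundant end just below 0, and RpS19b and RpS10a lie among scarce genes above 0.

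Most other abundant genes with a row were negative too. Among other genes of the authors' deposited table with a mean count of at least 5000, 113 of 145 had a negative fold change (77.9%), at a median log2 fold change of -0.13. With a mean count at least that of RpL12, 18 of 21 other genes were negative by the authors' deposited table, with a median of -0.14, which is also the median of the 14 abundant ribosomal protein genes. Scarce genes went the other way in the authors' deposited table, with 356 of 465 positive under a mean count of 50 and 190 of 300 positive between 50 and 200. RpS10a and RpS19b lie in those classes.

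RpS19b is the germline-type copy of RpS19, a protein of the small subunit head needed to mature the small subunit. RpS19b (FBgn0039129, chromosome 3R, 23932729 to 23933530, minus strand) had implied mean normalised counts of 81.7 in ISWI RNAi and 36.5 in Control, from the authors' deposited table. It rose by 1.16 on the log2 scale, or 2.24-fold, by the authors' deposited table (standard error from the p 0.30, 95% interval 1.49-fold to 3.37-fold, adjusted p = 0.0045). Its interval lies above those of all 14 abundant genes in the authors' deposited table. Listing at p under 0.1 largely set this separation, since the 14 are negative with small errors and RpS19b is a positive call. Members without a row are not part of that comparison. RpS19a, the copy on the X chromosome, is not among the rows. The sources used here do not say how reads that match both copies were counted, so the split between the copies is uncertain.

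RpS10a is the other scarce copy with a row. It had implied mean counts of 8.99 in ISWI RNAi and 2.01 in Control, and a log2 fold change of 2.16, from the authors' deposited table (95% interval 0.42 to 3.90, adjusted p = 0.175). It did not pass, with a standard error of 0.89 implied by the p of the authors' deposited table. RpS10a is a single-exon gene within an intron of tau, on the opposite strand (chromosome 3R, 27652760 to 27653363), and tau is not among the rows. Its partner RpS10b is not among them either.

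By their names, 27 of the 92 genes form 13 groups of paralogues, and 3 groups have a gene in the authors' deposited table (RpS19, RpS10 and RpL10A). No group has more than 1 gene there. In the RpL10A group it is the abundant copy RpL10Ab, and RpL10Aa is not among the rows. Genes of the other groups, such as RpS5b, RpS14b, RpS15Ab, RpS28a, RpL22-like, RpL24-like and RpL7-like, are not among the rows, so their levels are not known here.

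Within 5 kb of RpS19b, CG13599 and CG31142 have a row, while Rpt2, CG5854, Gdh, CG43998 and CG43999 do not. CG13599 abuts its 3′ end with no base between them, on the other strand (chromosome 3R, 23931639 to 23932728). CG13599 had a mean count of 344 and rose by 0.45 (log2) by the authors' deposited table (95% interval 0.23 to 0.66, adjusted p = 0.00195). CG31142, 2740 bases from RpS19b, had a log2 fold change of 0.28 in the authors' deposited table (adjusted p = 0.286). Within 5 kb of the 16 listed members lie 73 annotated protein-coding or noncoding genes, of which 16 (21.9%) have a row in the authors' deposited table. Around the 76 members without a row it was 46 of 313 neighbours (14.7%), and around all 92 it was 62 of 386 (16.1%), in the authors' deposited table. A gene near more than 1 member is counted once for each, as eEF5 is for RpL12 and RpL39. Of all tests 21.5% were listed, a share over tested rather than annotated genes, and close to that around the listed members. No difference between these shares was tested. Beside RpS24, Ugt317A1 was at 0.47 in the authors' deposited table (adjusted p = 0.00629) while RpS24 itself was at -0.11.

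**Figure D3:**
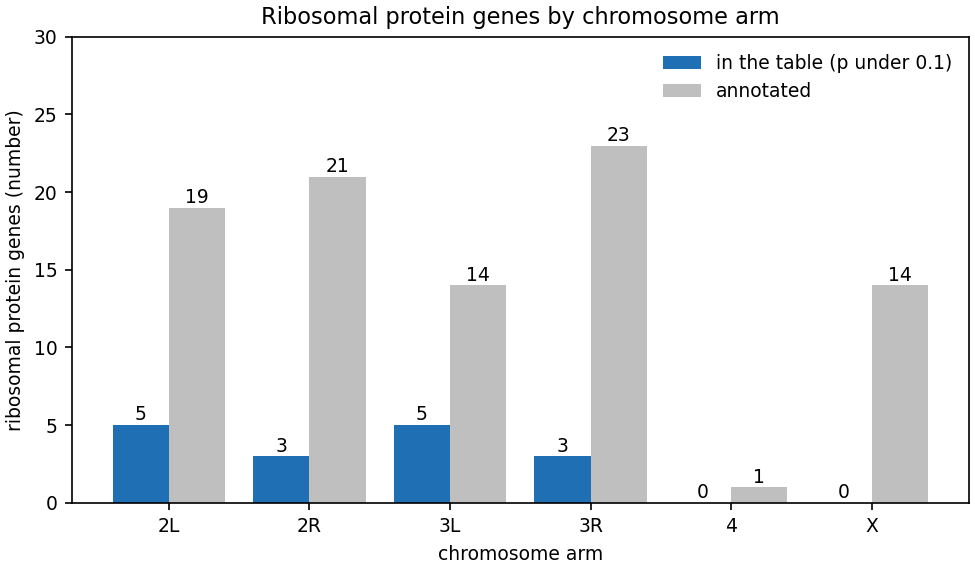
Number of ribosomal protein genes on each chromosome arm, with a row in the authors' deposited table (blue) and in the reference annotation (grey). Chromosome X has 14 annotated genes and 0 with a row, and 3L has 5 of 14.

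By position, listed members lay on 2L (5 of 19), 2R (3 of 21), 3L (5 of 14) and 3R (3 of 23). None of the 14 members on X, and not the single member on chromosome 4 (RpS3A), has a row in the authors' deposited table. Of all X-linked genes 340 have a row in the authors' deposited table, with 221 negative and a median log2 fold change of -0.15. On 2L, 2R, 3L and 3R together 1996 genes have a row in the authors' deposited table, with 981 negative and a median of 0.11. How many genes of each chromosome were tested is not known. An X-linked ribosomal protein gene outside the naming rule was listed: sta, which encodes the small subunit protein RpSA, had a log2 fold change of -0.15 and a mean count of 37946 by the authors' deposited table (adjusted p = 0.113). The X-linked members without a row include RpS6, RpL7A, RpL17, RpL22 and both RpS14 genes. RpL10 lies at 23093190 to 23095471 on 3L, towards the centromere.

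Introns of ribosomal protein genes often house small nucleolar RNAs, which guide chemical modification of ribosomal RNA. In the reference annotation 28 of the 92 genes have at least 1 snoRNA within their span on the same strand. The share was 5 of 16 (31.2%) for genes with a row in the authors' deposited table and 23 of 76 (30.3%) for the rest. The listed hosts included RpS12, RpS9, RpL27A and RpL10Ab. Members with a row had a median span of 1322.5 bases, against 1301 for those without, and a median of 4 against 3 exons in the transcript with most exons.

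Of 50 translation factors 3 fell and 0 rose at an adjusted p under 0.05 in the authors' deposited table, where 2.59% of all tests were called lower. A row was present for 7 of the 50 (14%), against 21.5% of all tests in the authors' deposited table. eIF4B, which helps eIF4A unwind the messenger, fell by 0.36 in the authors' deposited table (adjusted p = 2.1e-10). eEF1beta, the exchange factor for the elongation factor that delivers tRNA, fell by 0.25 in the authors' deposited table (adjusted p = 0.0018). Rack1, a scaffold bound to the small subunit head, fell by 0.18 in the authors' deposited table (adjusted p = 0.0349). eEF1alpha2 was at -0.20 in the authors' deposited table without passing (adjusted p = 0.186). Listed factors numbered 7, of which 6 were negative, at a median log2 fold change of -0.18 in the authors' deposited table. The median of all genes in the authors' deposited table was -0.10. The listed factors are abundant, with a median mean count of 17239. Among all listed genes outside the ribosomal proteins with a mean count of at least 5000, 77.9% were negative, at a median of -0.13.

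In the ribosome assembly pathway, 2 of 45 genes fell and 0 rose in the authors' deposited table, with 11 listed (24.4%). Of all tests, 2.59% were called lower and 21.5% were listed. nop5, a core protein of the snoRNA particles that methylate ribosomal RNA, fell by 0.18 in the authors' deposited table (adjusted p = 0.011). Rrp4, a subunit of the exosome that trims ribosomal RNA precursors, fell by 0.30 in the authors' deposited table (adjusted p = 0.0357). eIF6, which keeps the large subunit from joining early and contacts RpL23, was at -0.21 (adjusted p = 0.0519) by the authors' deposited table. The median of the 11 listed genes was -0.16, with 10 negative and CG11920 at 0.27, in the authors' deposited table. Their median mean count was 1521. Among all listed genes outside the ribosomal proteins with a mean count of 1000 to 5000, 63.0% were negative, at a median of -0.13.

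Of 73 mitochondrial ribosomal protein genes, mRpS5 fell by 0.19 in the authors' deposited table (adjusted p = 0.0369). Lower calls made up 2.59% of all tests there. The 8 listed were all negative, which is 11.0% of the list, against 11.2% of all tests listed with a negative fold change in the authors' deposited table. mRpL3, mRpS26 and mRpL2 were at -0.17, -0.24 and -0.20 in the authors' deposited table and did not pass. RNA polymerases I and III, which transcribe ribosomal RNA, tRNA and 5S RNA, had 0 of 20 genes called, with Brf at 0.20 and CG18600 at -0.24 in the authors' deposited table. In that list 2 genes had an unadjusted p under 0.05. Of 12 factors for the core promoter, among them Trf2, M1BP and Dref, 0 were called, and TfIIA-S was listed at -0.19 in the authors' deposited table (adjusted p = 0.0778). It is the 1 gene of that list with a row (8.33%), and the 1 gene with an unadjusted p under 0.05.

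Calls among genes of the response to ribosomal protein loss were higher. crc, the fly ATF4 factor of the integrated stress response, rose by 0.32 (log2) by the authors' deposited table (95% interval 0.21 to 0.42, adjusted p = 1.8e-06). Xrp1, a transcription factor induced in Minute cells in a manner that needs RpS12, rose by 0.30 in the authors' deposited table (95% interval 0.12 to 0.47, adjusted p = 0.0272). Irbp18, which pairs with Xrp1 on DNA, was at 0.34 in the authors' deposited table without passing (adjusted p = 0.0964). Atf3 was at 0.24 (adjusted p = 0.264) by the authors' deposited table. In this list 2 of 17 genes rose and 0 fell in the authors' deposited table, where 2.06% of all tests were called higher. The 5 listed (29.4%, against 21.5% of all tests) had a median of 0.30 in the authors' deposited table.

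Growth regulators included 2 of 24 genes that rose and 0 that fell in the authors' deposited table. Higher calls made up 2.06% of all tests there. Max, the DNA-binding partner of Myc, and Pi3K92E, the catalytic subunit of the insulin pathway's lipid kinase, each rose by 0.26 in the authors' deposited table (adjusted p = 0.0166 and 0.0326). REPTOR and Mondo were at 0.28 and 0.15 (adjusted p = 0.117 and 0.3) by the authors' deposited table. The 6 listed genes of this list (25%, against 21.5% of all tests) had 5 positive values in the authors' deposited table. Myc is not among the rows.

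**Figure D4:**
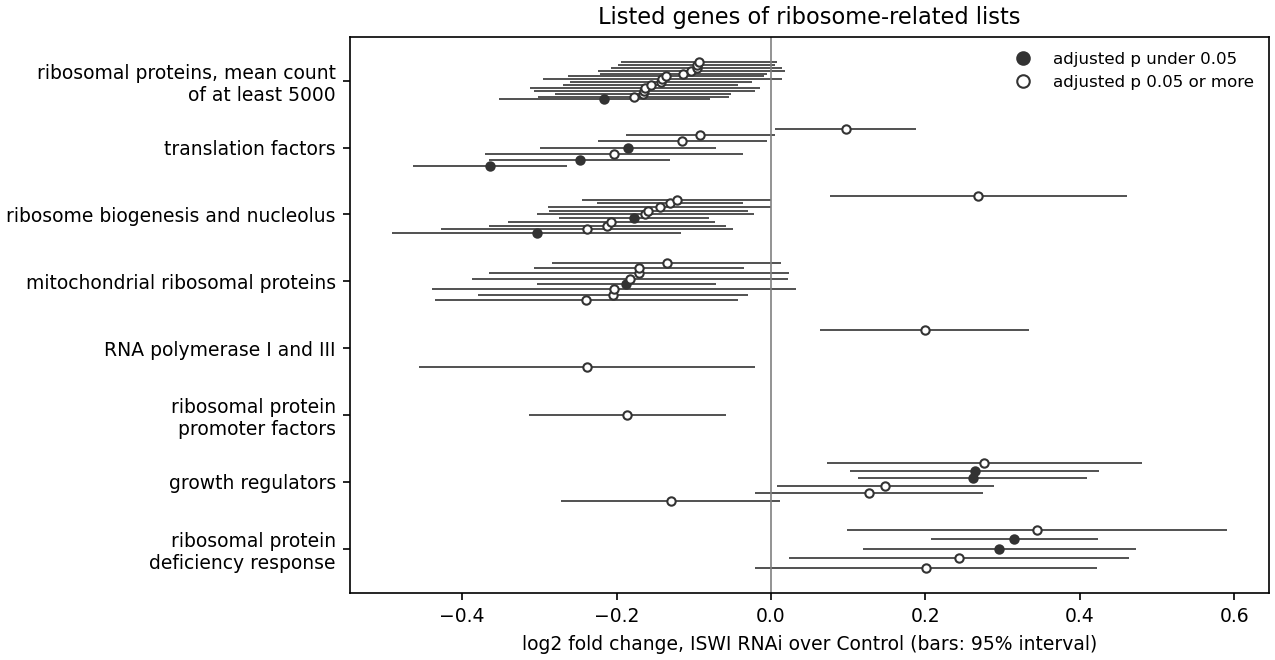
Log2 fold change (ISWI RNAi over Control, x axis, with 95% intervals) of the listed genes of each ribosome-related list; filled points have an adjusted p under 0.05. Translation factors, assembly genes and mitochondrial ribosomal proteins are mostly left of 0 as are the 14 abundant ribosomal proteins, and the 5 genes of the response to ribosomal protein loss are right of 0.

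RpS19b was read beside genes of other cell types in the same libraries. Of 10 germline genes 7 had a row in the authors' deposited table (70%, against 21.5% of all tests). Of these, 5 were positive and 2 negative. Among listed genes outside the ribosomal proteins, 356 of 465 were positive under a mean count of 50 and 190 of 300 between 50 and 200. Germline calls were 1 higher and 1 lower, where 2.06% of all tests were called higher and 2.59% lower. The piRNA pathway gene piwi rose by 1.85 (adjusted p = 1.1e-09) and AGO3, of the same pathway, fell by 1.13 (adjusted p = 0.00013) in the authors' deposited table. nos, bgcn, zpg, Rbp9 and aub were at 1.85, 0.67, 1.55, 0.36 and -0.40 in the authors' deposited table and did not pass. Rbp9 belongs to the ELAV family and is also expressed in neurons. The germline markers vas, bam and osk are not among the rows. The summed implied counts of the 7 listed genes were 602 in ISWI RNAi and 492 in Control, from the authors' deposited table, and carry no spread. Among them Rbp9 and piwi, both positive, had mean counts of 223 and 98.1 in the authors' deposited table. For aub and AGO3, both negative, these were 101 and 67.2, so the sum gives no direction shared by the 7 genes.

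All 6 hemocyte markers were listed with positive values, from 1.01 to 1.54, in the authors' deposited table, and NimC1 and Pxn passed. Of all tests 21.5% were listed, 10.2% were listed with a positive fold change and 2.06% were called higher in the authors' deposited table. The summed implied counts of the 6 hemocyte markers were 6200 in ISWI RNAi and 2439 in Control. These sums are from the authors' deposited table and carry no spread. Hml and Ppn had the largest mean counts, 2069 and 1513, and did not pass (adjusted p = 0.166 and 0.293 from the authors' DESeq2 comparison). Of 4 muscle markers Mhc stood at 0.71 and up at 0.58 by the authors' deposited table, and of 4 neuroblast markers dpn was listed at -0.19. A row was thus present for 50% of the muscle and 25% of the neuroblast markers, against 21.5% of all tests. Mhc, up and dpn did not pass (adjusted p = 0.401, 0.319 and 0.117 from the authors' DESeq2 comparison). None of 5 neuronal and 4 glial markers has a row, so the label of the tissue was not checked by them. The part of other cell types in the values of ribosomal protein genes was not tested. In whole tissue, fewer cells of a type and less RNA per cell cannot be told apart.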

How the data were processed

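RNA sequencing was compared between 4 ISWI RNAi and 3 Control libraries of larval central nervous system, from a directional kit and single 100-base reads, per the labels' protocols. The submitters' processing notes name STAR 2.5.0b, DESeq2 and the build BDGP6. The counting step, and whether fold changes were shrunken, are not given in the sources used here.

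The authors' deposited table gives, per the file headers, a base mean (a signal, the mean count after division by size factors), a log2 fold change, a p-value and an adjusted p-value for each gene. With no values per library used, the depth of each is unknown and no model was refitted. The replicates are described as biological in the labels' protocols. From p, rank and adjusted p, the deposited adjustment is that of Benjamini and Hochberg over 10775 tests. Another 54 genes, whose adjusted p equals 1, count as not tested.

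A gene was called when the adjusted p was under 0.05. Standard errors and 95% intervals were worked out from log2 fold change and p, taken as a Wald test. If the fold changes were shrunken, these errors are too small. Implied group counts split the mean count by the fold over 4 and 3 libraries, and cover no spread. Python 3.11.15, pandas 2.3.3 and scipy 1.17.1 were used, and the implied errors and the number of tests were tested on simulated data. Of 9 rows without a symbol 8 took one from the Ensembl release 115 annotation of BDGP6, in which all 16 members have the same positions. Gene levels were compared per kilobase of the deposited gene length. Members and lists were chosen with earlier results of these data known, and all lists are described by counts and medians. List symbols not found in the annotation were left out of the list sizes. Named genes are the members with a row (1 is counted but not reported by name here), in each ribosome-related or growth list the called genes and up to 4 with the lowest adjusted p, Iswi, and germline markers with a row. CG13599, CG31142, Ugt317A1, asRNA:CR45874, sta, NimC1, Pxn, Mhc, up and dpn were chosen after their values were seen. Alternatives were other thresholds, a filter on mean count, and members without paralogues or overlaps.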

Additional observations from a re-analysis of the deposited data

How the results depend on the processing

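No paired analysis was possible because the table holds 1 fold change per gene and no value per library, and for the same reason no library could be left out. The member alternative that drops the less abundant gene of a paralogue pair was not run, because the partners have no row. Counts of called members moved with the threshold. Against 1 higher and 1 lower member at an adjusted p under 0.05, there were 3 lower ones under 0.1 and 0 lower ones under 0.01 in the authors' deposited table. At an unadjusted p under 0.05 there were 2 higher and 9 lower, against a background of 14.7% of all tests, and with Bonferroni adjustment 0 higher and 0 lower. Without paralogue pairs, an alternative chosen after seeing the data, 0 were higher and 1 lower. Of listed members, 14 negative and 2 positive became 9 negative at an unadjusted p under 0.05, 8 negative and 1 positive without members that overlap another gene, and 0 positive at a mean count of at least 5000. After subtraction of the median of the class of mean count there were 9 negative and 7 positive, at a median log2 fold change of -0.0054 in place of -0.14; the class of the 14 abundant members had a median of -0.13, close to their own, so this split follows from the centring. Large subunit genes went to 5 negative at an unadjusted p under 0.05, and small subunit genes to 0 positive at a mean count of at least 5000. RpS19b stayed positive, at 0.73 after the same subtraction. The lower limit of its interval was 0.57, which had to lie above 0 because the interval was worked out from its p. Lists gained 1 higher gene each for ribosome assembly and RNA polymerases I and III, and 1 lower promoter factor, at an adjusted p under 0.1. The other alternatives left each count within 1.5 times its value. Restricting members to those with a symbol in the table, also chosen after seeing the data, removed RpS12 and changed no call.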
